A study of Mus musculus with 6 samples.

Results

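The Hedgehog pathway genes Shh, Ptch1, Smo, Sufu, Gli1, Gli2, Gli3 and Hhip were followed in dissected mouse skin on Affymetrix expression arrays. They were chosen by name as ligand, receptor, transducers and targets of the pathway. Earlier results of these data were known at that choice, so counts of these genes are descriptions only. All 8 had a probe set, out of 15644 probe sets that carried a gene name. The mutant group held 3 male skin samples of genotype Hoxc13 knockout Hoxc13tm1Mrc. The wild type group held 3 male WT skin samples. Both groups were on the C57BL/6 background and have 5 dpn in their titles. Hoxc13 encodes a homeobox protein that acts in the cells of the hair shaft. The labels do not say whether the mutant animals carried 1 or both copies of the targeted allele, nor whether skin was pooled. The comparison asks how the transcripts of the Hedgehog pathway stood in skin with a targeted Hoxc13 gene.

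The samples' labels were set against their own transcripts first. The hair keratin gene Krt35 read 6.46, 6.13 and 6.09 in the mutant arrays, against 13.11, 13.05 and 13.24 in the wild type arrays. The Hoxc13 probe set read 8.95, 8.75 and 9.74 in the mutant arrays, against 9.63, 9.81 and 9.83 in the wild type arrays, and mutant replicate 3 thus read like wild type. The labels do not say where these probes lie relative to the altered part of Hoxc13, so its level is no check of genotype. Mutant replicate 3 also stood apart over all probe sets, correlating at 0.989 and 0.990 with the other mutant arrays, which correlated at 0.997. The labels give male as the sex, but sex-linked transcripts went against this. On all 6 arrays Xist read 11.15 to 11.67, while the 5 measured Y-linked genes read 2.98 to 4.89. The skin keratins Krt5, Krt14, Krt1 and Krt10 read above 12.5 on all arrays. All values are log2 RMA values, in which a difference of 1 is a doubling, and the number of arrays limits their precision.

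Hedgehog signalling is a pathway of secreted ligands. Sonic hedgehog, the product of Shh, is made by epithelial cells of the hair placode and later by a patch of hair matrix cells, and is needed for the follicle to grow down into the dermis. It binds the receptor Ptch1, which otherwise holds the membrane protein Smo inactive. Active Smo releases the Gli transcription factors from Sufu. Gli2 acts mainly as an activator and Gli3 mainly as a repressor, while Gli1, Ptch1 and Hhip are themselves transcribed in response, so that their transcripts are widely used as readouts of the pathway in epithelium and dermis.

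The members moved in different directions in mutant skin. Gli1 rose and Gli3 fell. The other 6 did not pass the limma test, which was called at a Benjamini-Hochberg adjusted p under 0.05 over all 16331 probe sets. Of the 8 genes, 1 was called higher, where 0.478% of all probe sets were, and 1 was called lower, where 1.6% were. With both directions together, 2 of 8 members were called, beside 2.08% of all probe sets. The median difference, mutant minus wild type, was 0.46 over the members and 0.0247 over all probe sets. Mutant and wild type values did not overlap for 6 of 8 members, beside 20.3% of all probe sets. The mutant arrays lay above all wild type arrays for Shh, Gli1, Gli2, Smo and Hhip, a relation that 12.5% of all probe sets showed. They lay below for Gli3, as for 7.82% of all probe sets. Ptch1 and Sufu overlapped.

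**Figure D1:**
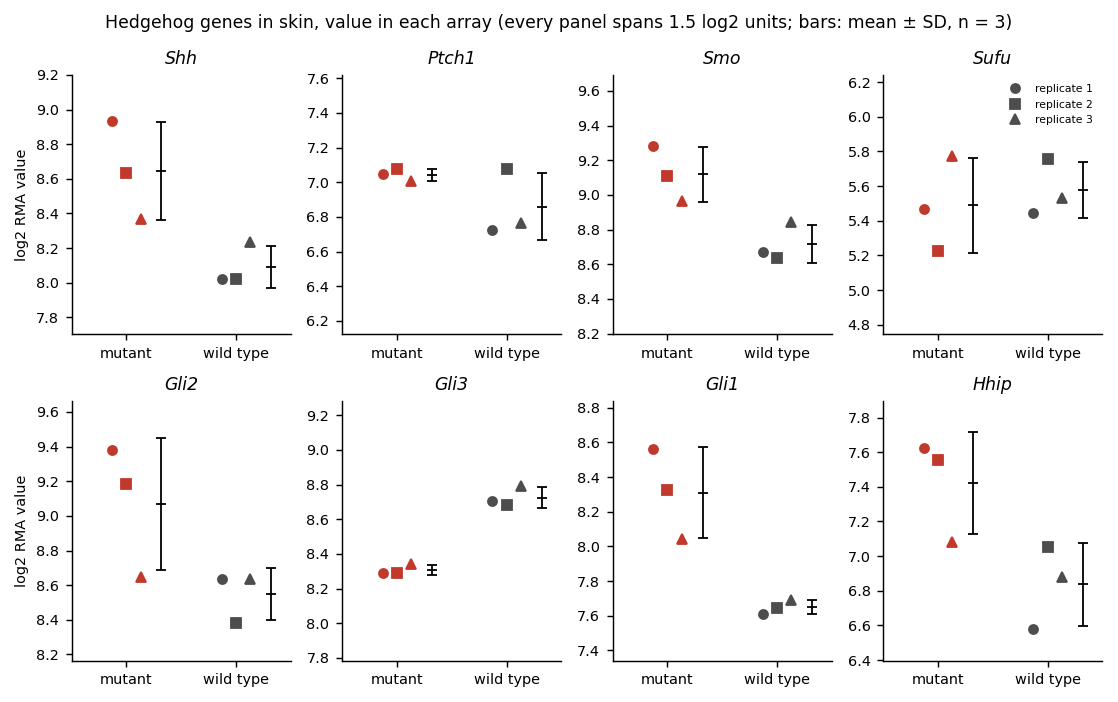
Log2 RMA value of each Hedgehog gene in each of the 3 mutant (red) and 3 wild type (grey) arrays, with marker shape giving the replicate number and bars the mean and SD (n = 3). All panels span the same height in log2 units. The groups are separate for 6 genes and overlap for Ptch1 and Sufu.

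The ligand gene Shh read 8.93, 8.63 and 8.37 in the mutant arrays, against 8.02, 8.02 and 8.23 in the wild type arrays. All mutant values were higher than all wild type values, and mutant replicate 3 lay nearest to wild type. The means were 8.64 ± 0.28 in mutant and 8.09 ± 0.12 in wild type skin (SD, n = 3 each). The difference of 0.55 (SE 0.14, 95% interval 0.22 to 0.89) missed the threshold (limma adjusted p = 0.132). The interval is that of the single gene and is not widened for the number of genes tested. The array holds mixed tissue, so fewer or more cells of a type and less or more RNA per cell cannot be told apart.

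The receptor gene Ptch1, whose product binds the ligand and which is also a target of the pathway, read 7.05, 7.07 and 7.01 in the mutant arrays, against 6.73, 7.08 and 6.77 in the wild type arrays. The mutant values lay close together and wild type replicate 2 lay level with them. The difference was 0.19 (SE 0.10, 95% interval -0.06 to 0.43; limma adjusted p = 0.459). It was 0.12 without wild type replicate 1 and 0.30 without wild type replicate 2, and no omission brought it past the threshold (limma adjusted p = 0.225 to 0.796). The difference between the responses of Ptch1 and Gli1 was not tested.

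The signal transducer gene Smo read 9.28, 9.11 and 8.97 in the mutant arrays, against 8.67, 8.64 and 8.84 in the wild type arrays. The groups were separate, with a gap between mutant replicate 3 and wild type replicate 3 that was smaller than the range within either group. Their means differed by 0.40 (SE 0.10, 95% interval 0.16 to 0.64; limma adjusted p = 0.12). Sufu, which encodes the cytoplasmic protein that restrains the Gli factors, read 5.47, 5.22 and 5.77 in the mutant arrays, against 5.45, 5.76 and 5.53 in the wild type arrays. Its values overlapped fully and differed by -0.09 (SE 0.15, 95% interval -0.43 to 0.26; limma adjusted p = 0.835). Sufu read near the lower quartile of the arrays (5.485), and without detection calls its signal was not separated from background.

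The factors Gli2 and Gli3 had differences of opposite sign. Gli3 read 8.29, 8.29 and 8.34 in the mutant arrays, against 8.71, 8.68 and 8.79 in the wild type arrays. Its values were tight in both groups, and mutant replicate 3 sat with the other mutant arrays. The means were 8.31 ± 0.03 in mutant and 8.73 ± 0.06 in wild type skin (SD, n = 3 each). Gli3 fell by 0.42 (SE 0.07; limma adjusted p = 0.0253), a ratio of mutant to wild type of 0.748. Gli2 read 9.38, 9.18 and 8.65 in the mutant arrays, against 8.64, 8.38 and 8.63 in the wild type arrays. Mutant replicate 3 lay only just above the wild type arrays, while mutant replicates 1 and 2 lay well above them. The Gli2 difference was 0.52 (SE 0.18, 95% interval 0.10 to 0.94) and missed the threshold (limma adjusted p = 0.248).

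The target gene Gli1, a Gli factor whose own transcription follows pathway activity, read 8.56, 8.33 and 8.04 in the mutant arrays, against 7.61, 7.64 and 7.69 in the wild type arrays. The wild type values were tight and every mutant value lay above them, with mutant replicate 3 the lowest of the mutant arrays. The means were 8.31 ± 0.26 in mutant and 7.65 ± 0.04 in wild type skin (SD, n = 3 each). Gli1 rose by 0.66 (SE 0.13, 95% interval 0.37 to 0.96; limma adjusted p = 0.0488), which is 1.58-fold, and passed the threshold narrowly. Among all 16331 probe sets this difference stood at the 99.2 percentile.

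The target gene Hhip encodes a membrane protein that binds and sequesters the ligand. It read 7.62, 7.55 and 7.08 in the mutant arrays, against 6.58, 7.05 and 6.88 in the wild type arrays. The groups were separate, but mutant replicate 3 and wild type replicate 2 nearly touched. The difference of 0.58 (SE 0.17, 95% interval 0.18 to 0.98) missed the threshold (limma adjusted p = 0.175).

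**Figure D2:**
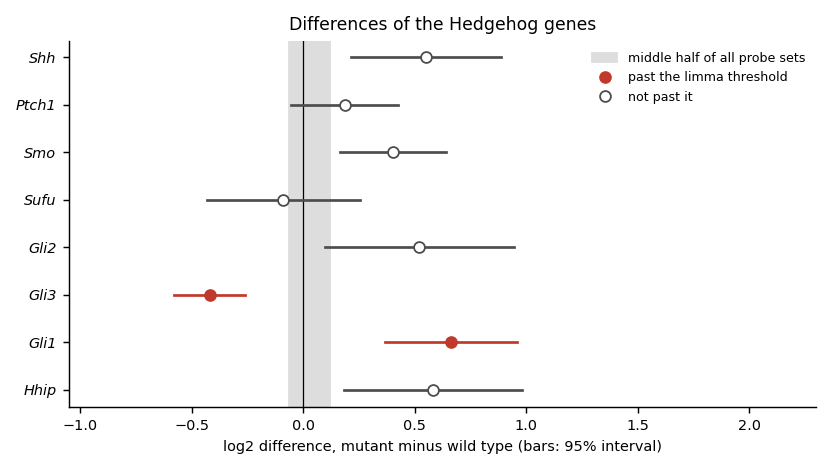
Log2 difference, mutant minus wild type, of each Hedgehog gene with its 95% interval. Filled red points passed the limma test over all probe sets, and the grey band runs from the lower to the upper quartile of all probe sets (-0.0647 to 0.12). The points of Gli3 and Sufu lie to the left of the band and those of the other genes to the right, with Gli1 the farthest right.

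Promoter windows of RefSeq (GRCm38.p6, 250 bases before to 50 bases after the start) were found for 6 of the 8 members, namely Ptch1, Hhip, Smo, Sufu, Gli2 and Gli3. They were searched on both strands for the letters GACCACCCA, the binding motif of the Gli factors, and for its inner letters CCACCC, which lie within it. GACCACCCA was in 0 of the 6 windows and in 0.253% of all 32851 windows. CCACCC was in 4 of the 6, namely those of Hhip, Smo, Gli2 and Gli3, and in 31.5% of all windows. Of these, 3 are shown 5′ to 3′ along the gene's strand, with CCACCC or its reverse complement GGGTGG in capitals. Gli2 and Gli3 are shown as related factors whose differences had opposite sign, and Hhip as a target. A match of letters is a description and not a binding site. The Gli2 window is chr1:119053570-119053869 on the minus strand, the Gli3 window chr13:15463473-15463772 on the plus strand and the Hhip window chr8:80057959-80058258 on the minus strand.
Gli2: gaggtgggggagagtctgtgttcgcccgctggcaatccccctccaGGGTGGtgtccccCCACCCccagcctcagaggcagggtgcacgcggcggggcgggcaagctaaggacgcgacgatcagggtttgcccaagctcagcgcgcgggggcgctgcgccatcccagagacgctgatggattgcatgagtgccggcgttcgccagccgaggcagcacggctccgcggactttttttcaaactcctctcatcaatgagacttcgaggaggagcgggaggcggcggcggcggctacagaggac
Gli3: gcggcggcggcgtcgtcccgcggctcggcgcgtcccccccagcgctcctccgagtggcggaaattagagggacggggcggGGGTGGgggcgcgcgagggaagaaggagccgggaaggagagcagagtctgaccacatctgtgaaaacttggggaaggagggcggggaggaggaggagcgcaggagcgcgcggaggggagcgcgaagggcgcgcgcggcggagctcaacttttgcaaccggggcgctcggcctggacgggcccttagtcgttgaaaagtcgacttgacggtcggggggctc
Hhip: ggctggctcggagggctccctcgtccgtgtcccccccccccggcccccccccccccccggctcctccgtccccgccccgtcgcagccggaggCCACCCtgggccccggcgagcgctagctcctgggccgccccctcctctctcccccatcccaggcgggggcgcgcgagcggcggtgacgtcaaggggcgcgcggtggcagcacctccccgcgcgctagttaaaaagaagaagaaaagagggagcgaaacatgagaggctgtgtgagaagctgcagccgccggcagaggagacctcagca
The Gli2 window held the letters at 205 bases (GGGTGG) and 192 bases (CCACCC) before the start, the Gli3 window at 170 bases (GGGTGG) and the Hhip window at 158 bases (CCACCC). The windows of these genes, one lower and the others not called, thus shared the inner letters, as many other windows did. The windows were rich in G and C, at 67.3% for Gli2, 71.0% for Gli3 and 73.7% for Hhip, beside a median of 52.7% over all windows.

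Targets were then set against transducers as changes, because levels of different probe sets are not comparable. Each gene was centred on its wild type mean, and the genes of a role were averaged in each array. The 3 targets (Gli1, Hhip and Ptch1) averaged 0.63, 0.54 and 0.26 in the mutant arrays, against -0.14, 0.14 and -0.002 in the wild type arrays. The 4 transducers (Smo, Sufu, Gli2 and Gli3) averaged 0.21, 0.06 and 0.04 in the mutant arrays, against -0.03, -0.03 and 0.06 in the wild type arrays. The target means were separate between the groups, whereas for the transducers the value of mutant replicate 3 fell between those of the wild type arrays. This contrast of means did not hold gene by gene. The target Ptch1 overlapped, while the transducers Smo, Gli2 and Gli3 were each separate and Sufu overlapped.

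The target change minus the transducer change averaged 0.37 ± 0.13 in mutant skin and 0.00 ± 0.15 in wild type skin (SD, n = 3 each). It was 0.42, 0.48 and 0.23 in the mutant arrays, against -0.12, 0.17 and -0.06 in the wild type arrays. These averages describe the chosen genes and were not tested. The mean of the transducers covered unlike members, with Smo and Gli2 above 0 in all mutant arrays and Gli3 below 0 in all of them. The differences of Smo (0.40) and Gli2 (0.52) were about as large as the target mean in mutant skin (0.476). The contrast thus came from counting Gli3 (-0.42) and Sufu (-0.09) among the transducers, and was not computed without them. Gli1 relative to Gli3, centred in the same way, stood at 1.35, 1.11 and 0.78 in the mutant arrays, against -0.02, 0.04 and -0.02 in the wild type arrays. Every mutant array lay above the wild type arrays, as follows from setting a gene called higher against one called lower. Between 2 targets, Hhip relative to Ptch1 stood at 0.60, 0.50 and 0.09 in the mutant arrays, against -0.13, -0.01 and 0.13 in the wild type arrays, and the groups overlapped.

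**Figure D3:**
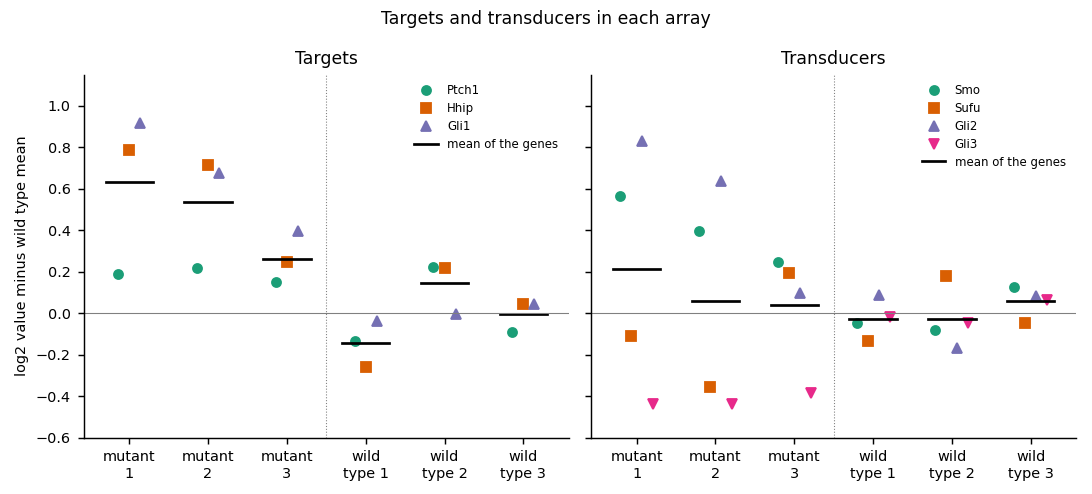
Log2 value minus the wild type mean for the targets (left panel) and the transducers (right panel) in each array, mutant arrays to the left of the dotted line. Points are genes and black bars their mean. The target bars stand at 0.63, 0.54 and 0.26 in the mutant arrays, and the transducer bars at 0.21, 0.06 and 0.04, with Gli3 below and Smo and Gli2 above them.

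The values of mutant replicate 3 entered each result. It was the lowest mutant array for 6 of the 8 members (Shh, Ptch1, Hhip, Smo, Gli2 and Gli1), which 37.5% of all probe sets showed. Against the average of mutant replicates 1 and 2 it was at -0.64 for Gli2, -0.51 for Hhip, -0.42 for Shh, -0.40 for Gli1, -0.23 for Smo and -0.05 for Ptch1. It was at 0.05 for Gli3 and at 0.43 for Sufu, and was the highest mutant array for both. Without that array, Shh, Gli1, Gli2, Smo and Hhip were called higher and Gli3 lower by limma, 5 and 1 of 8, where 7.95% and 6.23% of all probe sets were (14.2% in both directions together). In that fit the differences were 0.69 for Shh, 0.80 for Gli1, 0.73 for Gli2, 0.48 for Smo and 0.75 for Hhip. The fit rests on 2 mutant arrays that resemble each other closely, so its adjusted p-values may be too small.

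The calls of Gli1 and Gli3 did not hold in the 5 fits that kept mutant replicate 3 and dropped another array, each with fewer arrays. The Gli1 difference then ranged from 0.54 to 0.80 and that of Gli3 from -0.44 to -0.39 over all 6 omissions. The limma adjusted p ranged from 0.00142 to 0.218 for Gli1 and from 0.00749 to 0.141 for Gli3. Every omission kept the sign of both, and of Shh, Ptch1, Smo, Gli2 and Hhip. For Sufu the difference ranged from -0.23 to 0.04.

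**Figure D4:**
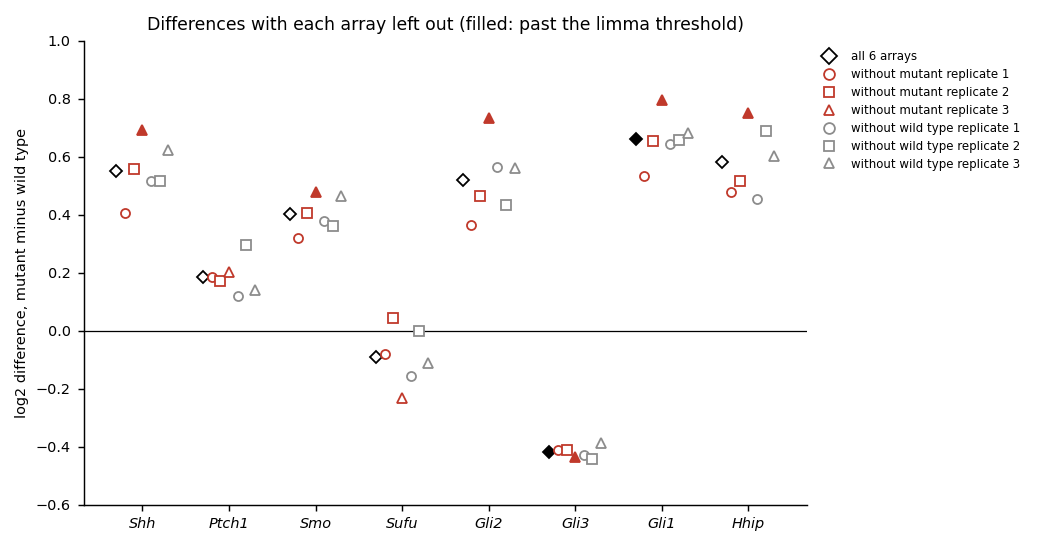
Log2 difference, mutant minus wild type, of each Hedgehog gene with all 6 arrays (black) and with each array left out (red for mutant arrays, grey for wild type arrays). Filled points passed the limma test. Gli3 stays between -0.44 and -0.39, while Shh, Gli1, Gli2 and Hhip are highest without mutant replicate 3.

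Of 48 other genes of the pathway, 41 had a probe set. Ccnd2 was called higher (1 of 41, beside 0.478% of all probe sets), and none was called lower by limma, beside 1.6%. At an unadjusted p under 0.05 limma gave 3 of 41 higher and 2 lower, where 8.44% and 5.94% of all probe sets were (14.4% in both directions together). Among the 8 members the same counts were 5 higher and 1 lower. Without mutant replicate 3, limma's adjusted p called 4 of 41 higher and 2 lower, where 7.95% and 6.23% of all probe sets were. Both counts of the 41 were near the shares of all probe sets. The median difference of the 41 was 0.047 with all arrays, 0.089 without mutant replicate 2 and 0.082 over the 33 genes left when probe sets of low mean level were left out. That of all probe sets was 0.0247 with all arrays. Of the 41 differences, 30 were above 0, beside 57.6% of all probe sets. The 8 members thus had a larger median (0.46) than the rest of the pathway, but the lists were chosen with earlier results of these data known and the difference between them was not tested.

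Among genes that act downstream, 1 of 7 was called. Ccnd2, a cyclin of the cell cycle that the pathway can induce, read 11.58, 11.49 and 11.53 in the mutant arrays, against 11.15, 11.22 and 11.17 in the wild type arrays. The groups were tight and separate, and Ccnd2 rose by 0.35 (SE 0.07; limma adjusted p = 0.0457), a call that did not hold in the 5 fits that kept mutant replicate 3 and dropped another array. Over all 6 omissions the Ccnd2 difference stayed between 0.33 and 0.38, with a limma adjusted p of 0.0159 without mutant replicate 3 and of 0.129 to 0.218 in the other fits. Of 6 ligand side genes, which modify, release or parallel Shh, none passed limma's threshold (1 had an unadjusted p under 0.05). Scube2, which aids release of the ligand, had the smallest p and a difference of -0.43 (limma adjusted p = 0.18). It read 7.08, 7.47 and 7.59 in the mutant arrays, against 7.80, 7.83 and 7.80 in the wild type arrays, so the groups were separate.

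Among receptor side genes none of 5 passed limma's threshold, with a median of 0.13 (1 had an unadjusted p under 0.05). Gpc3, a glypican that competes with Ptch1 for the ligand, had a difference of 0.49 (limma adjusted p = 0.198) and read 11.16, 11.14 and 10.64 in the mutant arrays, against 10.38, 10.66 and 10.43 in the wild type arrays. In mutant replicate 3 it read no higher than in wild type replicate 2. None of 14 cilium and transduction genes passed limma's threshold (0 had an unadjusted p under 0.05). Their median difference was 0.031 with all arrays, 0.012 without mutant replicate 1, 0.011 without mutant replicate 2 and 0.062 with probe sets of low mean level left out. Evc, a protein of the ciliary base that acts with Smo, had the smallest p among them and a difference of 0.17 (limma adjusted p = 0.354). None of 9 genes that phosphorylate or degrade the Gli factors passed limma's threshold (1 had an unadjusted p under 0.05). Their median difference was 0.023 with all arrays and had no stable direction, at -0.015 without mutant replicate 3, -0.002 without wild type replicate 1, -0.013 with array weights and 0.059 without mutant replicate 1. Dyrk2, a kinase, had the smallest p of these, with a difference of -0.24 (limma adjusted p = 0.272).

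The 6 of 41 genes called without mutant replicate 3, a fit that called 14.2% of all probe sets, were Ccnd2, Bcl2, Gpc3 and Efcab7, which were higher, and Scube2 and Dyrk2, which were lower. Bcl2, an inhibitor of cell death, and Efcab7, a partner of the Evc proteins, were singled out after their values were seen. With all 6 arrays their differences were 0.39 and 0.29, and neither was called (limma adjusted p = 0.104 and 0.399).

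**Figure D5:**
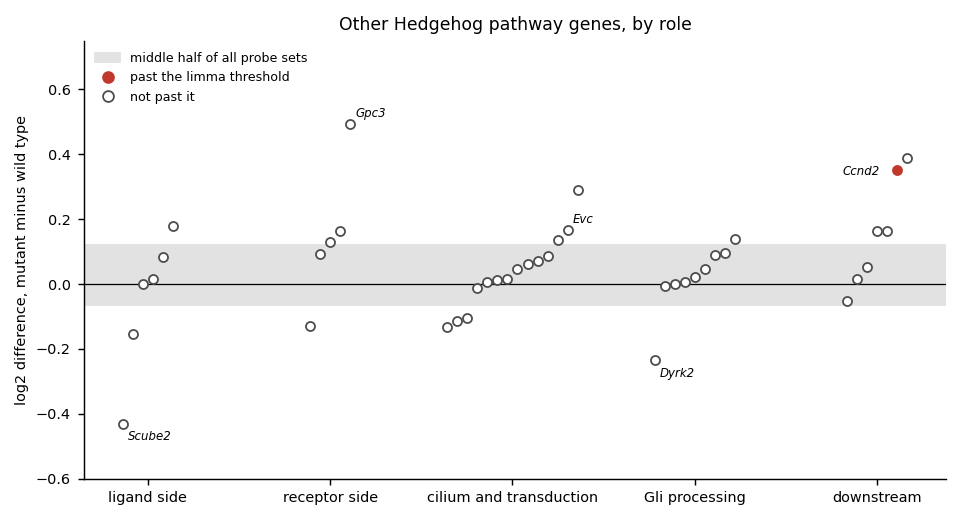
Log2 difference, mutant minus wild type, of the 41 other pathway genes by role, with the gene of smallest p in each role named. The filled red point is Ccnd2, the only one past the limma threshold with all 6 arrays, and the grey band runs from the lower to the upper quartile of all probe sets. Most genes of the cilium and of Gli processing lie within or near the band.

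Members were compared with each other by the root mean square distance between their log2 profiles over the 6 arrays, each centred on its own mean. Shh and Gli1 were the closest pair (0.077), followed by Shh and Smo (0.105), Shh and Gli2 (0.114) and Gli2 and Gli1 (0.137). These 4 genes had positive differences and their lowest mutant value in mutant replicate 3, as did Hhip and Ptch1. Other members lay farther from Shh, with Hhip at 0.163, Ptch1 at 0.285, Sufu at 0.445 and Gli3 at 0.519. The most distant pair was Gli3 and Gli1 (0.566), the members with the lowest and the highest difference. Such distances largely restate the group differences given above and are no separate support.

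Among all named genes, the profile nearest to Shh was that of Btla (0.022), an inhibitory receptor of lymphocytes, followed by Frat2 (0.060), a regulator of Wnt signalling, and Edar (0.067), the ectodysplasin receptor of the follicle epithelium. Those nearest to Gli1 were Slco3a1 (0.057), an organic anion transporter, Btla (0.059) and Pappa (0.074), a protease of insulin-like growth factor binding proteins. Ptch1 was nearest to Dusp12 (0.030), Nedd4 (0.033) and Fth1 (0.040), and Hhip to Ip6k3 (0.082), Gpc3 (0.089) and Vwa2 (0.103). Gli3 was nearest to Abca14 (0.020), Phyh (0.031), a peroxisomal enzyme, and Adamts5 (0.038), a protease of the extracellular matrix. Abca14 read 3.35 to 3.40 in the mutant arrays and 3.72 to 3.90 in the wild type arrays, no higher than the Y-linked genes. Ip6k3 (5.01 to 5.85 over all arrays) and Btla in the wild type arrays (5.70 to 5.90) read near the lower quartile of the arrays (5.485). Without detection calls, these signals were not separated from background. These distances over 6 arrays are descriptions only.

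Markers of cell types that skin can hold were read beside the members, as the mean log2 value of each list in each array. The dermal papilla list, from mesenchymal cells at the follicle base that respond to Shh, averaged 7.93, 7.93 and 7.58 in the mutant arrays, against 7.59, 7.60 and 7.63 in the wild type arrays. None of its 7 genes passed limma's threshold, with a median of 0.29 (0.188 without mutant replicate 2). An unadjusted limma p under 0.05 was reached by 2 higher and 1 lower, beside 8.44% and 5.94% of all probe sets. Without mutant replicate 3, limma called 4 genes of the list higher and 1 lower, beside 7.95% and 6.23% of all probe sets. Of its 7 differences, 4 were above 0 and 3 below. They ran from -0.36 for Crabp1 to 0.83 for Corin, whose limma adjusted p was 0.10, and these 2 genes were named after their values were seen.

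The hair matrix list, from the epithelium that makes the shaft, held Lef1, Msx2, Foxn1, Dlx3 and the targeted gene Hoxc13 itself. It averaged 8.37, 8.37 and 8.99 in the mutant arrays, against 9.07, 9.16 and 9.14 in the wild type arrays. Foxn1 was the 1 gene of 5 called in it, where 1.6% of all probe sets were called lower. Foxn1 fell by 1.21 (SE 0.10; limma adjusted p = 8.78e-04). Without mutant replicate 3, all 5 were called lower, beside 6.23% of all probe sets. These 5 include Hoxc13, which read like wild type in the array left out. The 4 measured hair shaft keratins were all called lower, beside 1.6% of all probe sets, with a median of -6.98. Inner root sheath markers averaged 12.94 to 13.30 in mutant and 13.16 to 13.22 in wild type arrays, and 0 of 5 passed.

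Stromal lists gave mixed values. The dermal fibroblast list averaged 12.40 to 12.66 in mutant and 12.41 to 12.53 in wild type arrays, with 0 of 6 genes called. The macrophage list averaged 8.24 to 8.81 in mutant and 8.24 to 8.25 in wild type arrays, with 0 of 4 called. The fat cell list averaged 11.52 to 12.01 in mutant and 11.51 to 11.70 in wild type arrays, with 0 of 3 called. All 4 macrophage differences were above 0, as were 2 of 3 for fat cells and 2 of 6 for dermal fibroblasts. Of all probe sets, 57.6% were above 0. The skeletal muscle list averaged 10.19 to 11.29 in mutant and 9.40 to 10.71 in wild type arrays. Of its 6 genes 1 was called higher, beside 0.478% of all probe sets. All 6 muscle differences were above 0, with a median of 0.82. An unadjusted limma p under 0.05 was reached by 3 of them, where 8.44% of all probe sets were higher at that level. Without mutant replicate 3 the muscle median was 1.09 and 2 were called higher, beside 7.95% of all probe sets. Leaving out mutant replicate 1 gave a muscle median of 0.503, and leaving out wild type replicate 3 gave 0.507. The wild type arrays of this list spanned more than the difference between its group means.

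The remaining lists were read in the same way. The Schwann cell list averaged 7.66 to 7.74 in mutant and 7.04 to 7.49 in wild type arrays (0 of 2 called). The endothelial list averaged 7.49 to 7.77 in mutant and 7.50 to 7.77 in wild type arrays (0 of 4 called). Melanocyte genes averaged 10.73 to 11.42 in mutant and 11.36 to 11.59 in wild type arrays (0 of 5), and sebaceous gland genes 9.02 to 9.996 in mutant and 9.90 to 10.06 in wild type arrays (0 of 3). Keratinocyte markers averaged 12.69 to 12.79 in mutant and 12.52 to 12.68 in wild type arrays (0 of 6), and the 2 measured markers of dividing cells 10.14 to 10.46 in mutant and 10.19 to 10.33 in wild type arrays (0 of 2). All 6 keratinocyte, 2 Schwann cell and 2 dividing cell differences were above 0, beside 57.6% of all probe sets. All 5 melanocyte and 3 sebaceous gland differences were below 0, and the endothelial list had 2 above and 2 below. Of the lists with 0 called by limma, an unadjusted p under 0.05 was reached by 2 melanocyte genes and by 1 gene each of the inner root sheath, dermal fibroblast, Schwann cell and sebaceous gland lists, and by 0 of the keratinocyte, fat cell, endothelial, macrophage and dividing cell lists. Over all probe sets, 14.4% reached that level in limma. Only 2.08% passed the adjusted threshold, so 0 called in lists this short says little. Without mutant replicate 3, 4 melanocyte genes, 2 sebaceous gland genes and 2 inner root sheath genes were called lower. In that fit 2 genes each of the macrophage, fat cell and dermal fibroblast lists and 1 Schwann cell gene were called higher. It called 0 of the keratinocyte, endothelial and dividing cell lists. Of all probe sets, the same fit called 7.95% higher and 6.23% lower. RMA values have no true zero, so no marker is listed at 0. The part of these cell types in the differences of the Hedgehog genes was not tested.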

How the data were processed

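Total RNA of dissected skin was labelled by oligo(dT)-primed one-cycle amplification, per the labels' protocols, which favours the 3′ ends of transcripts. The authors deposited log2 values made with RMA, per the submitters' processing notes, of a version and genome build that no label names. RMA quantile normalises the arrays, which hides changes in total RNA and compresses differences near background. Of 16395 probe sets, 64 controls were left out and 16331 tested. A single gene symbol was given for 15644, several for 0, and 687 were unnamed here. Each gene had a single probe set.

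Groups and replicate numbers came from the labels. The design text calls the samples independent. The test of mutant against wild type was limma's (version 3.58.1, run in R 4.3.3; lmFit then eBayes, two-sided, no filter or block), with Benjamini-Hochberg adjustment over all probe sets at 0.05. The prior had 3.53 degrees of freedom. The fit was tested on simulated independent arrays with the same SD in both groups. These held no deviating array such as mutant replicate 3, so that test does not cover its effect. Members, gene lists and the naming rule were chosen with earlier results of these data known. Named were the members, Hoxc13, the pathway genes called in each role (at most 4) or else the one with the smallest p, and the 3 nearest profiles of Shh, Gli1, Ptch1, Hhip and Gli3. Other genes were named after their values were seen or as markers. Alternatives were a filter on low mean level, repeated quantile normalisation, centring, array weights, a robust prior with an intensity trend, the replicate block and leaving out each array. Figures used Python 3.11.15 and matplotlib 3.10.9.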

Additional observations from a re-analysis of the deposited data

How the results depend on the processing

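The filter on low mean level and the trend with a robust prior kept the calls of Gli1, Gli3 and Ccnd2. They made no other call among the members and other pathway genes. Repeated quantile normalisation and centring of each array gave the same calls, but could hardly have changed them. The RMA values were already quantile normalised, and every array had a median of 7.405. With array weights, which gave mutant replicate 3 the lowest weight (0.234), 6 members, 6 other pathway genes and 1880 probe sets were called. The replicate number served only as a name, since deviations of same-numbered arrays correlated at 0.036, -0.119 and -0.087 and 0 of 3 mutant arrays correlated best with its own number. With the replicate block 0 members, 0 other pathway genes and 197 probe sets were called, against 2, 1 and 339 without it. At an adjusted p of 0.097, Gli1 and Gli3 missed the threshold under the block. Leaving out 1 array at a time gave 0 to 6 members, 0 to 6 other pathway genes and 151 to 2316 probe sets, with the upper end of each reached without mutant replicate 3. Over the same omissions the target change minus the transducer change ranged from 0.316 to 0.46. Leaving out a gene such as Gli3 from that score was not tried. Sufu ranged from -0.231 without mutant replicate 3 to 0.044 without mutant replicate 2. That turned sign lay far from the threshold (limma adjusted p = 0.943), and the cause was not tested. No detection calls or probe intensities were used here, so background was not separated from signal for low members such as Sufu.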
